A study of Mus musculus with 2 samples.

Results

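Histone genes were followed here in 2 total RNA libraries from the lung of B6NCrl mouse embryos at embryonic day 15.5, a stage at which the airways are still branching and cells divide. Each library came from 1 pool of male and female embryos, 78 embryos in replicate 1 and 62 in replicate 2, with 10 ng of input RNA longer than 200 nt and added spike-in RNAs. Both libraries belong to 1 group with no treatment and no genotype contrast, so no condition was compared and every mean ± SD has n = 2 pools. The genes were chosen by symbol, as protein-coding genes whose GENCODE M21 name starts with Hist1h, Hist2h, Hist3h or Hist4h, plus H2afx, H2afy, H2afz, H2afv, H3f3a, H3f3b, H1f0 and H1fx. This gave 75 genes, of which 72 were listed among the 43346 Ensembl genes of the tables. The 72 comprised 64 genes with Hist names, called replication-dependent here, and 8 separately named variant genes. Hist1h2bh, Hist1h2bm and Hist2h2bb were not analysed here.

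Nucleosomes wrap DNA around an octamer of the core histones H2A, H2B, H3 and H4, and the linker histone H1 binds outside it. Most core histone protein is made during S phase from clustered, intronless genes whose mRNAs end in a stem-loop in place of a poly(A) tail, and SLBP, the stem-loop binding protein, governs their processing and turnover. Variant genes such as H3f3a and H2afz lie outside the clusters, are mostly spliced, carry poly(A) tails and are made throughout the cell cycle, so non-dividing cells also rely on them. The labels cite the manual of a kit for very small RNA inputs, a kit that primes from poly(A) tails. Whether that priming was used is not stated, and its part in the levels below was not tested.

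The stem-loop is shown first because it is the 3′ end element known for replication-dependent histone mRNAs. It was searched after the stop codon in GENCODE M21 transcripts as a 16-nt hairpin of 6 pairs, with a GG start, a CC end and TT as the first bases of its 4-nt loop. Of the 64 replication-dependent genes, 42 held one, 21 to 58 nt after the stop codon with a median of 31.5 nt. Of these 42, 21 were annotated to end over 100 nt past the hairpin and 21 within 100 nt. Among those printed below, the annotated end lay 770 nt past the hairpin in Hist1h4d, 1153 nt in Hist1h1e and 822 nt in H2afx. In Hist1h2ap it lay 3 nt past and in Hist1h2ae 151 nt. Of the other 22, 14 were annotated to end at most 2 nt past the stop codon and so could not show one. The remaining 8 had a longer annotated 3′ end without a match, and a missing match says only that these letters are not in the annotated window. Among the 8 variant genes, H2afx alone held one. Below, capitals mark the hairpin, and the first and second lines begin with a run of A that directly precedes it or lies 4 nt before it. Sequences are GENCODE M21, build GRCm38, written 5′ to 3′ on the transcript strand.
Hist1h2ap A run to hairpin, chr13:21833029-21833056, - strand: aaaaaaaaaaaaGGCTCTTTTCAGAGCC
Hist1h2ae A run to hairpin, chr13:23570668-23570695, - strand: aaaaaaaacaaaGGCTCTTTTCAGAGCC
Hist1h4d, chr13:23581945-23581970, + strand: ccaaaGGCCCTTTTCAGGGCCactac
Hist1h1e, chr13:23621777-23621802, - strand: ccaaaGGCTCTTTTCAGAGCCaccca
H2afx, chr9:44335235-44335260, + strand: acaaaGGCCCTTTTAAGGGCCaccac

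The hairpin printed for Hist1h2ap was held by 24 of the 43 genes with a match, and that of Hist1h4d by 7.

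Promoters came from RefSeq (GRCm38.p6) and run from 250 bases before to 50 bases after the RefSeq start. They were available for 66 of the 72 genes. Those of the highest H2A gene, the second H2A gene and 2 H4 genes are printed because their levels differ widely. Capitals mark 3 motifs on either strand: the TATAAA box, the CCAAT box and the octamer ATTTGCAT.
Hist1h2ap promoter, chr13:21833426-21833725, - strand: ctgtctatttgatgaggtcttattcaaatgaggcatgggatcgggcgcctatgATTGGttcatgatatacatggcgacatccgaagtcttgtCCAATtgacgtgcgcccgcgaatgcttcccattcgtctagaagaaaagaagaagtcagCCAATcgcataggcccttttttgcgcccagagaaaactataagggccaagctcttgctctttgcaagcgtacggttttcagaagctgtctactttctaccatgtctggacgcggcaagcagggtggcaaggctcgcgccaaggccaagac
Hist1h2ae promoter, chr13:23571171-23571470, - strand: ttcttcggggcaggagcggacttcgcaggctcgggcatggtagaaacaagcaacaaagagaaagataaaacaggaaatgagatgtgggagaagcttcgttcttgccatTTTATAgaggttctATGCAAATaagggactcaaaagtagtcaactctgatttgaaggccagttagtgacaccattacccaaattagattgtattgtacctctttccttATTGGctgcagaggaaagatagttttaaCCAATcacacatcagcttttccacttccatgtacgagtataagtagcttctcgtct
Hist1h4d promoter, chr13:23581318-23581617, + strand: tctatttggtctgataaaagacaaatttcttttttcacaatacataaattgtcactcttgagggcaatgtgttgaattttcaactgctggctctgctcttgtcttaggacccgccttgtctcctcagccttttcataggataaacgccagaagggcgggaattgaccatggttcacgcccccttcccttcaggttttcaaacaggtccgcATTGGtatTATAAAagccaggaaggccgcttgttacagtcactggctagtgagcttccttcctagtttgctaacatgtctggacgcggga
Hist1h4i promoter, chr13:22041313-22041612, - strand: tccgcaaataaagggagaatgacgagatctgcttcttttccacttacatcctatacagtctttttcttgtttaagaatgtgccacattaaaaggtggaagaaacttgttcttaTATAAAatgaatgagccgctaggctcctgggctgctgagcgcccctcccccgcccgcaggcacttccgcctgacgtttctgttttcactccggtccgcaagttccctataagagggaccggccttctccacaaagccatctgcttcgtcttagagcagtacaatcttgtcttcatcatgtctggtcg

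The RefSeq start of Hist1h2ap lies 32 nt downstream of the GENCODE start, and that of Hist1h4d lies 30 nt upstream. CCAAT was present in all 6 H1, 18 H2A, 13 H2B and 10 H3 replication-dependent promoters available, and in 3 of 12 H4 promoters. The share over all 32851 promoters of the table was 37.4%. TATAAA was present in 35 of the 59 replication-dependent promoters, against 13.6% of all promoters. The octamer was present in 7 of 18 H2A and 5 of 13 H2B promoters and in none of the replication-dependent H1, H3 or H4 promoters, against 1.74% of all. Of the 7 variant promoters available, 4 held CCAAT, and H3f3b alone held TATAAA and the octamer. H2A and H2B genes that start close together on opposite strands have overlapping windows, so a site between them can be counted for both. The H2A and H2B counts are therefore not independent. The printed Hist1h2ae window reaches past the start of its neighbour Hist1h2bg, 176 nt away. A match is a description of letters and not of a bound site.

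Levels are in TPM, a length-scaled share of the library with a fixed total, with the deposited interval that covers counting and the assignment of shared reads. The intervals belong to the posterior mean estimate, and 6 of the 63 detected genes in each library had a TPM outside their own interval. Gene reads came to 39530297 in replicate 1 and 35733530 in replicate 2. The lung label was checked on marker lists. Sftpc, a surfactant protein gene, was at 6881 and 5864 TPM, and the other epithelial markers Nkx2-1, Epcam and Cdh1 were between 71.0 and 246 TPM. The mesenchymal markers Col1a1, Col3a1, Tcf21 and Pdgfra were between 31.3 and 1359 TPM, and the endothelial markers Pecam1, Cdh5 and Kdr between 46.1 and 99.3 TPM. Neighbouring tissues differed between the pools. The liver genes Alb, Afp and Apoa1 were at 4.82, 10.7 and 5.61 TPM in replicate 1 and at 23.3, 53.6 and 24.97 TPM in replicate 2. The heart genes Myl2 and Myh7 were also higher in replicate 2, at 25.8 against 119 TPM and 14.5 against 38.7 TPM, whereas Tnnt2 was at 160 and 132 TPM. The thymus genes Lck, Cd3e and Rag1 were higher in replicate 1, at 21.1 against 6.97 TPM, 9.22 against 1.49 TPM and 2.46 against 0.50 TPM. Blood transcripts were abundant in both, with Hbb-bs at 9400 and 9606 TPM and Hba-a1 at 6590 and 7204 TPM, whereas the white blood cell gene Ptprc was at 6.20 and 3.13 TPM. In such bulk tissue, fewer cells of a type and less RNA per cell cannot be told apart.

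Histone mRNA was broadly detected. Of the 72 genes, 63 (87.5%) were at 1 TPM or more in both libraries, beside 60.7% of the 21474 protein-coding genes listed. All 8 variant genes and 55 of the 64 replication-dependent genes were detected. In both libraries, 7 variant genes and 4 replication-dependent genes reached 100 TPM, the latter being Hist1h2ap, Hist1h2ae, Hist1h3i and Hist1h4d. The median replication-dependent gene was at 7.26 TPM in replicate 1 and 7.44 TPM in replicate 2, beside 4.99 and 4.52 TPM for all protein-coding genes. The median variant gene was at 439 and 450 TPM.

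**Figure D1:**
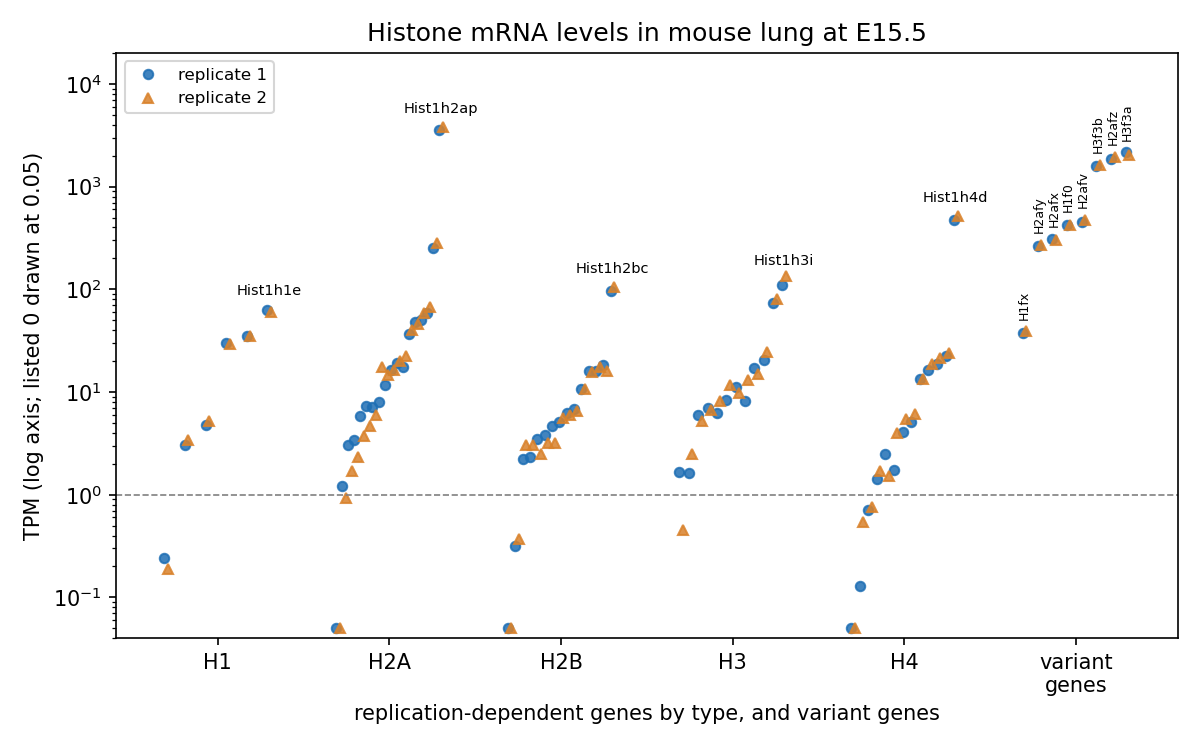
TPM (log axis) of the 72 genes in both libraries, replication-dependent genes by histone type and variant genes on the right, with circles for replicate 1 and triangles for replicate 2. The dashed line is 1 TPM, values listed as 0 are drawn at 0.05, and in each replication-dependent type a single labelled gene stands highest, from Hist1h1e at 61.6 TPM to Hist1h2ap at 3684 TPM.

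The histone genes together held 12309 TPM in replicate 1 and 12833 TPM in replicate 2, which was 1.23% and 1.28% of all TPM. Replication-dependent genes gave 42.5% and 44.6% of this sum (43.5% ± 1.49, SD, n = 2), and variant genes the rest. H2A genes took the largest share, 57.3% ± 1.07 (SD, n = 2), and H3 genes 31.7% ± 1.11 (SD, n = 2). H1 genes gave 4.75% ± 0.160 (SD, n = 2), H4 genes 4.69% ± 0.205 (SD, n = 2) and H2B genes 1.56% ± 0.0140 (SD, n = 2). The order of H2A, H3 and H2B was the same in both libraries, whereas H1 stood above H4 in replicate 1 (4.86% and 4.54%) and below it in replicate 2 (4.64% and 4.83%). These shares rest on few genes. Without Hist1h2ap, the replication-dependent share was 20.1% and the H2A share 39.7%, below the H3 share of 44.8%, an alternative chosen after seeing the data. With estimated counts not divided by length, the H2A share was 43.3% and the H3 share 43.6%, so H2A was not the largest under either setting.

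**Figure D2:**
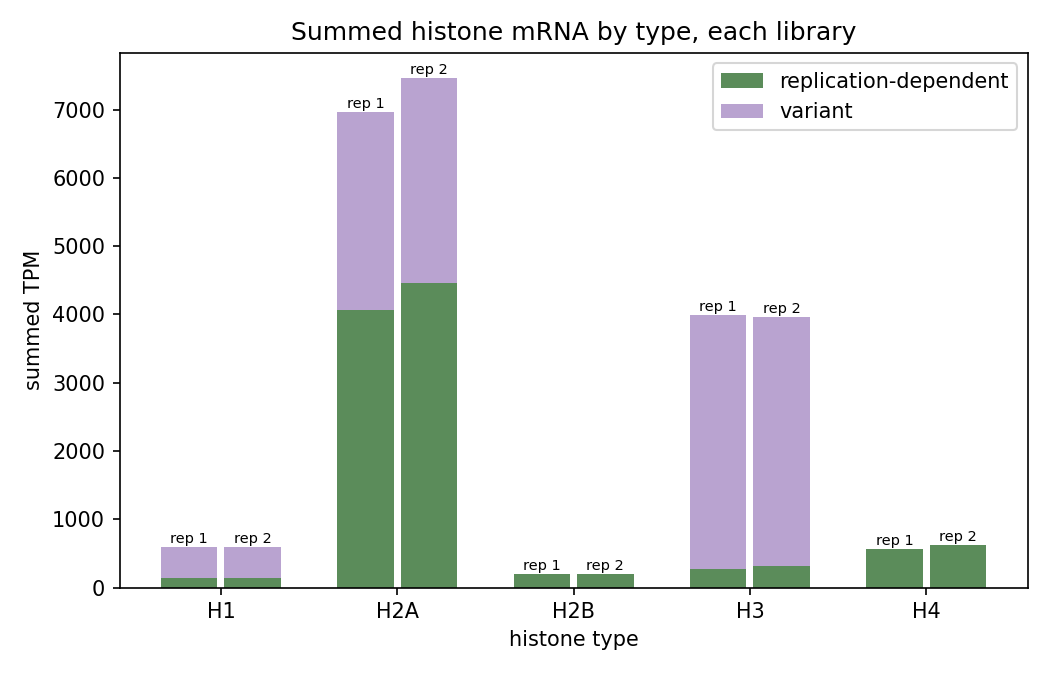
Summed TPM of each histone type in each library, on a linear axis from 0, with replication-dependent genes in green and variant genes in violet. H2A (6963 and 7455 TPM) and H3 (3995 and 3964 TPM) stand above the other types, and most H3 and H1 TPM comes from variant genes.

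Among the H3 genes chosen, the replacement histone H3.3, which is deposited outside replication, made up nearly all mRNA. H3f3a was at 2150 and 2031 TPM and H3f3b at 1575 and 1622 TPM, and both have transcripts annotated with the same 136-residue protein. H3f3a was higher than H3f3b in both libraries with intervals apart, by 1.37-fold and 1.25-fold. Together they gave 93.2% and 92.1% of H3 TPM (92.7% ± 0.791, SD, n = 2). H3f3a (chromosome 1, 180800832 to 180813943) overlaps the opposite-strand genes Gm17275 and H3f3aos. Gm17275 was at 3.41 and 2.69 TPM and H3f3aos at 0.51 and 0.22 TPM, and the sources used here do not give whether counting used strand. The H3f3a-201 transcript, annotated with a 135-residue product, held 68.4% ± 0.438 (SD, n = 2) of H3f3a TPM. H3f3a-204, annotated with 119 residues, held 22.8% ± 0.601 (SD, n = 2). H3f3a-205 and H3f3a-207, annotated with the 136-residue protein, held 7.745% and 0.16% on average. H3f3b-201, annotated with the same protein, held 88.0% ± 0.00707 (SD, n = 2) of H3f3b TPM.

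The 12 replication-dependent H3 genes summed to 270.0 and 312 TPM, so that H3.3 mRNA was 13.8-fold and 11.7-fold higher. Hist1h3i was at 109 and 136 TPM, Hist2h3b at 73.4 and 79.6 TPM and Hist1h3d at 20.3 and 24.6 TPM, and these 3 differed from each other in both libraries. The lowest detected gene was Hist1h3f at 1.61 and 2.51 TPM, and Hist2h3c1, at 1.66 and 0.45 TPM, was under 1 TPM in replicate 2. By encoded protein the genes form 2 families that differ at 1 of 136 residues, known as H3.1 and H3.2. The 4 H3.1 genes summed to 133 and 160 TPM (147 ± 19.1 TPM, SD, n = 2) and the 8 H3.2 genes to 137 and 152 TPM (144 ± 10.8 TPM, SD, n = 2). Which family was higher changed between the libraries, so their sums did not differ beyond the spread. H3.3 differs from H3.1 at 5 residues and from H3.2 at 4.

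Among H2A genes a single locus dominated. Hist1h2ap, an intronless 482-nt gene at chromosome 13, 21833026 to 21833507, was at 3520 TPM in replicate 1 and 3848 TPM in replicate 2 (3684 ± 232 TPM, SD, n = 2). It ranked 19th by mean TPM among all genes listed, above H3f3a (35th), H2afz (39th) and H3f3b (47th). Hist1h2ap gave 67.4% and 67.3% of all replication-dependent TPM and 86.5% and 86.4% of replication-dependent H2A TPM. The second gene, Hist1h2ae, was at 253 and 286 TPM, 13.9-fold and 13.5-fold lower, and the third, Hist1h2ab, at 58.8 and 66.9 TPM. The intervals of these 3 were apart in both libraries. Over the whole H2A order, 3 of the 15 steps between neighbours were apart in both libraries, so most of the order was not resolved. The lowest detected gene was Hist1h2ao at 3.03 and 1.69 TPM.

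Hist1h2ap and Hist1h2ao are near-identical copies, which bears on how their reads were split. Of the 383 windows of 100 nt in Hist1h2ap, 30 occurred in no other listed gene on either strand, and most of the others occurred in Hist1h2ao. The interval of Hist1h2ao was wide, 0.45 to 9.25 TPM in replicate 1 and 0.11 to 7.04 TPM in replicate 2, whereas that of Hist1h2ap was 3403 to 3479 and 3715 to 3797 TPM. Summing the 9 genes that encode the same 130-residue H2A protein removes this split among them. That sum was 3917 and 4293 TPM (4105 ± 266 TPM, SD, n = 2), or most of the replication-dependent H2A sum of 4068 and 4455 TPM. The pseudogene Hist1h2aj, left out by the rule, was at 17.3 and 4.53 TPM.

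The 3′ ends of these genes, printed above, share a further feature that was noticed after their levels were known. Hist1h2ap and Hist1h2ao carry a run of 12 A immediately before the hairpin, and Hist1h2ae carries 8 A. A run of 8 or more A after the stop codon was annotated in 7 of the 64 replication-dependent genes: Hist1h2ap, Hist1h2ao, Hist1h2ae, Hist1h2ac, Hist1h2bc, Hist1h2be and Hist1h1d. Their mean levels ran from 2.36 TPM for Hist1h2ao to 3684 TPM for Hist1h2ap, and they include the highest and second H2A gene and the highest H2B gene. Other leading genes had no such run: the longest was 6 A in Hist1h4d, the second highest replication-dependent gene, and 0 in Hist1h3i, which is annotated to end at its stop codon. Of the variant genes, H3f3b holds a run of 12 A and H2afy a run of 10. The run starts 857 nt after the stop codon in Hist1h2ac, 315 nt in Hist1h2bc, 851 nt in Hist1h2be and 1510 nt in Hist1h1d, far from any hairpin found. For 20 of the 64 genes, Hist1h2ae and Hist1h2bc included, the M21 transcripts differ in length from those counted, so the counted 3′ end may differ. The counted transcripts of Hist1h2ac (476 nt) and Hist1h1d (744 nt) are too short to hold the run. Of the 44 genes with the same lengths, 2 held such a run. The share of such runs over all genes was not counted. The part of such runs in the levels was not tested.

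Other RNAs made without a poly(A) tail give a reference point, from a list chosen after seeing the data. Rn7sk, the 7SK RNA that holds a transcription elongation factor in reserve, was at 248 and 260 TPM, and Rpph1, the RNA of ribonuclease P, at 86.2 and 92.9 TPM. Rmrp, the RNA of ribonuclease MRP, was at 4.46 and 4.84 TPM and Terc, the telomerase RNA, at 0.47 and 0.50 TPM. The 7SL genes Rn7s1 and Rn7s2 were each at 12236 TPM in replicate 1 and near 13580 TPM in replicate 2, with wide intervals, 5897 to 21839 TPM for Rn7s1 in replicate 1. RNAs without tails were thus present over a wide range of levels.

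The H2A variants were all at 266 TPM or more. H2afz, which encodes H2A.Z at promoters and other regulatory regions, was at 1866 and 1952 TPM. H2afv, which encodes a second H2A.Z that differs at 3 of 128 residues, was at 453 and 477 TPM, 4.12-fold and 4.10-fold lower. Together they gave 33.3% and 32.6% of H2A TPM (32.9% ± 0.519, SD, n = 2), and 67.3% without Hist1h2ap. H2afx, whose product is phosphorylated at DNA breaks, was at 310 and 300 TPM. H2afy, which encodes macroH2A1 with its large non-histone domain, was at 266 and 271 TPM. The intervals of the neighbours in the order H2afz, H2afv, H2afx and H2afy were apart in both libraries, and the whole order of the 8 variant genes was resolved at 7 of 7 steps.

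Transcript make-up separated these variants further. H2afz-201, which encodes the 128-residue protein, held 89.3% and 90.8% of H2afz TPM. For H2afv the 128-residue form, H2afv-202, held 35.2% and 34.5%, and the 519-nt H2afv-201, annotated with a 90-residue product, held 64.8% and 65.5%. For H2afy the 372-residue form, H2afy-201, held 57.2% and 60.7% and the 369-residue form, H2afy-202, held 11.2% and 9.85%. The noncoding H2afy-204 held 25.6% and 23.4%. The 372-residue form was thus above the 369-residue form in both libraries. H2afx has 1 exon and 1 annotated transcript of 1384 nt, which holds the hairpin printed above.

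H1 mRNA came mostly from a variant gene. H1f0, which encodes the H1.0 linker histone of slowly dividing and differentiated cells, was at 425 and 423 TPM (424 ± 1.67 TPM, SD, n = 2), or 71.0% of H1 TPM in each library. It stood 3.12-fold and 3.17-fold above the sum of the 6 replication-dependent H1 genes. H1fx, which encodes the H1.10 linker histone, was at 37.5 and 39.1 TPM. Of the replication-dependent genes, Hist1h1e was at 63.0 and 60.1 TPM, Hist1h1b at 35.0 and 35.2 TPM and Hist1h1c at 29.9 and 29.1 TPM, and these 3 differed from each other in both libraries. Hist1h1d followed at 4.78 and 5.26 TPM, and Hist1h1a was lowest among those detected, at 3.06 and 3.44 TPM. Hist1h1e overlaps Hist1h2be on the same strand, and 75.3% of the 100-nt windows of its M21 transcript were unique to it.

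H4 mRNA also came mainly from a single gene. Hist1h4d, at chromosome 13, 23581598 to 23582735, was at 473 and 522 TPM (497 ± 35.0 TPM, SD, n = 2), or 84.5% and 84.2% of H4 TPM. All of the 100-nt windows of its M21 transcript were unique to it. Its counted transcript was 393 nt long, whereas M21 extends it to 1138 nt. Hist1h4i followed at 22.5 and 23.9 TPM and Hist1h4c at 18.6 and 21.7 TPM, which were not resolved from each other. The lowest detected gene by mean was Hist1h4f at 1.43 and 1.70 TPM, which was not resolved from Hist1h4j at 2.51 and 1.51 TPM. All 13 H4 genes encode the same 103-residue protein, whose mRNA summed to 559 and 620 TPM. The H4 sum was 2.07-fold and 1.99-fold above that of the replication-dependent H3 genes. Of the 2 printed H4 promoters, that of Hist1h4d holds CCAAT in reverse and that of Hist1h4i does not. CCAAT was present in 3 of the 12 H4 promoters available, and its part in the levels was not tested.

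H2B was the lowest type, and no H2B variant was among the genes chosen. The 3 genes not analysed here are all H2B genes, so the sums and ratios below lack 3 of 18. Hist1h2bq and Hist1h2br were counted only as transcripts of 1256 to 2197 nt, without their 381-nt M21 transcripts. Their levels, and the sums that hold them, carry that limit too. The 15 genes listed summed to 193 and 199 TPM, and the replication-dependent H2A genes were 21.1-fold and 22.4-fold above them. Without Hist1h2ap that ratio was 2.84 and 3.06. Hist1h2bc was highest, at 96.9 and 105 TPM, or 50.2% and 52.8% of H2B TPM. Hist3h2ba at 18.2 and 16.2 TPM and Hist1h2bk at 15.99 and 17.7 TPM followed and were not resolved from each other. The lowest detected gene by mean was Hist1h2bp at 2.21 and 3.07 TPM, which was not resolved from Hist1h2bq at 2.32 and 3.02 TPM.

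Genes known for testis expression were at or near 0. Hist1h1t, the testis linker histone, was at 0.24 and 0.19 TPM, from 4 and 3 reads. Hist1h2aa and Hist1h2ba, the testis H2A and H2B that start 306 nt apart, had 0 reads in both libraries. The limit that a count of 0 allows, 3 reads per library, came to 0.390 and 0.419 TPM for Hist1h2aa and to 0.398 and 0.428 TPM for Hist1h2ba. This limit leaves out the assignment of shared reads, and the deposited interval of Hist1h2ba reached higher, to 0.562 and 0.596 TPM. All 5 germ cell markers were under 1 TPM in both libraries: Ddx4 at 0.28 and 0.31, Sycp3 at 0.15 and 0.16, Prm1 at 0.31 and 0.11, Dazl at 0.08 and 0, and Tnp1 at 0 and 0 TPM. Of the other genes that missed the detection limit, Hist2h2ab (1.21 and 0.92 TPM) crossed 1 TPM in 1 library. Hist1h2br (0.32 and 0.37 TPM), Hist4h4 (0.71 and 0.76 TPM) and Hist1h4a (0.13 and 0.54 TPM) were under 1 TPM in both. Hist1h4m was listed at 0 in both, but 11.9% of its windows were unique and its interval reached 1.88 and 1.98 TPM.

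H2A and H2B genes of the clusters are often arranged head to head on opposite strands, so that a pair shares the DNA between its starts. There were 12 such pairs with both genes listed, 176 to 306 nt between starts. The pairs were far from even. Hist1h2ap and Hist1h2br start 236 nt apart, yet Hist1h2br was at 0.32 and 0.37 TPM. Hist1h2br has an interval of 0.03 to 1.42 TPM in replicate 1 and 0.09 to 1.89 TPM in replicate 2. Of its windows 8.48% were unique, with most others shared with Hist1h2bq, and its 381-nt M21 transcript Hist1h2br-202 was not among those counted, so the level of this partner is uncertain. Hist1h2ae was 23.4-fold and 26.5-fold above Hist1h2bg, its partner 176 nt away. The direction was opposite at Hist1h2ac and Hist1h2bc, at 5.88 against 96.9 TPM and 3.76 against 105 TPM. The H2A gene was higher with intervals apart in both libraries in 6 pairs and the H2B gene in 1. In 4 of the other pairs the intervals overlapped in at least 1 library, and in the testis pair both genes had 0 reads.

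**Figure D3:**
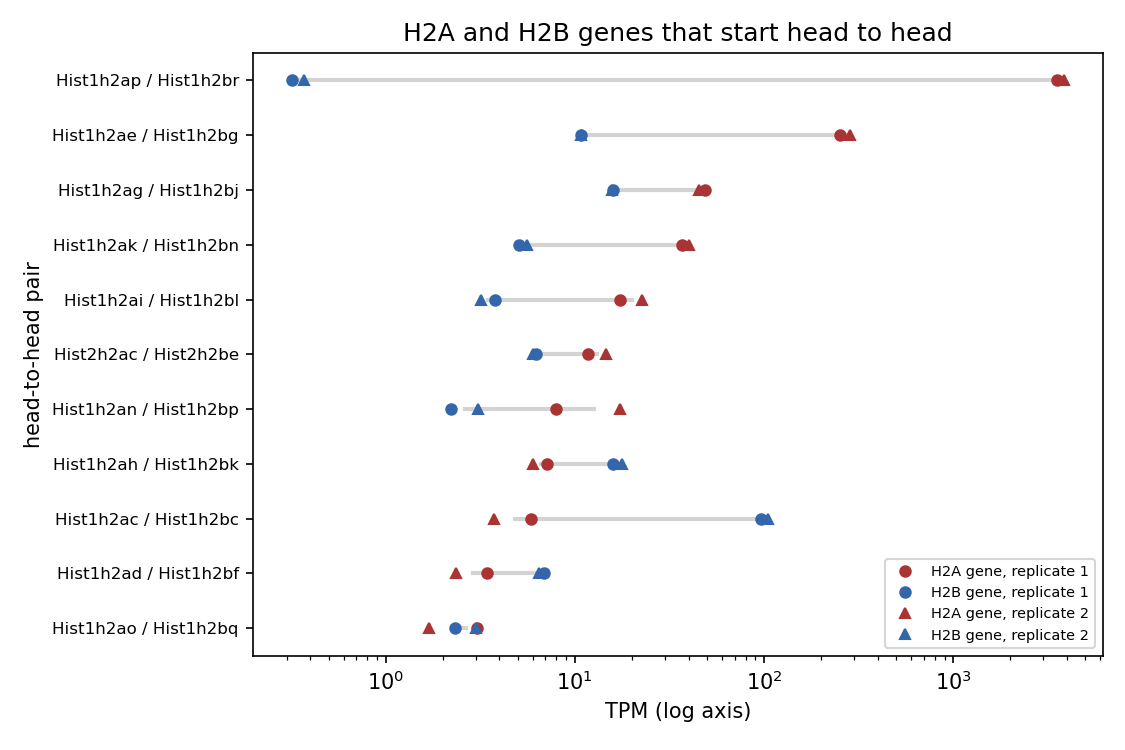
TPM (log axis) of the H2A gene (red) and the H2B gene (blue) of each head-to-head pair in both libraries, for the 11 pairs with reads, ordered by the H2A level. The grey bar joins the means, and the bar is longest for Hist1h2ap and Hist1h2br, where the H2A gene is at 3520 and 3848 TPM and the H2B gene at 0.32 and 0.37 TPM.

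By location, the chromosome 13 cluster fell into 2 blocks separated by more than 500 kb. The block from 21715763 to 22043676, with 22 genes, summed to 3879 and 4257 TPM, and that from 23531050 to 23934851, with 30 genes, to 1125 and 1224 TPM. The median gene was at 9.91 TPM in the first block and 5.83 TPM in the second. The 9 genes on chromosome 3 summed to 183 and 202 TPM, the 2 on chromosome 11 to 37.2 and 36.3 TPM, and Hist4h4 on chromosome 6 was at 0.71 and 0.76 TPM. Hist1h2ap alone gave 3520 and 3848 TPM of the first block.

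Interval widths were set beside sequence sharing. Windows came from M21 transcripts and intervals from the counted ones, which differ in length for 20 of the 64 replication-dependent genes. Hist1h2ac, for example, had 91.9% unique windows in its 2482-nt M21 transcript, whereas its counted transcript was 476 nt long. Its interval widths were 75.1% and 94.9% of the posterior mean TPM. The grouping by unique windows thus holds for M21 only. At least 50% of the 100-nt windows were unique in 45 genes, and the median interval width of the 40 detected among them was 26.9% and 30.3% of the posterior mean TPM. In the 27 genes with fewer unique windows, 23 were detected, with median widths of 76.0% and 76.1%. The former also had more reads, with medians of 248 and 242 against 124 and 152, and the part of reads and of sharing in the widths cannot be told apart. Hist2h2aa1, Hist2h2aa2, Hist2h3b and Hist2h3c1 had no unique window. The sum of Hist2h2aa1 and Hist2h2aa2, which encode the same protein, was 67.0 and 75.3 TPM.

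**Figure D4:**
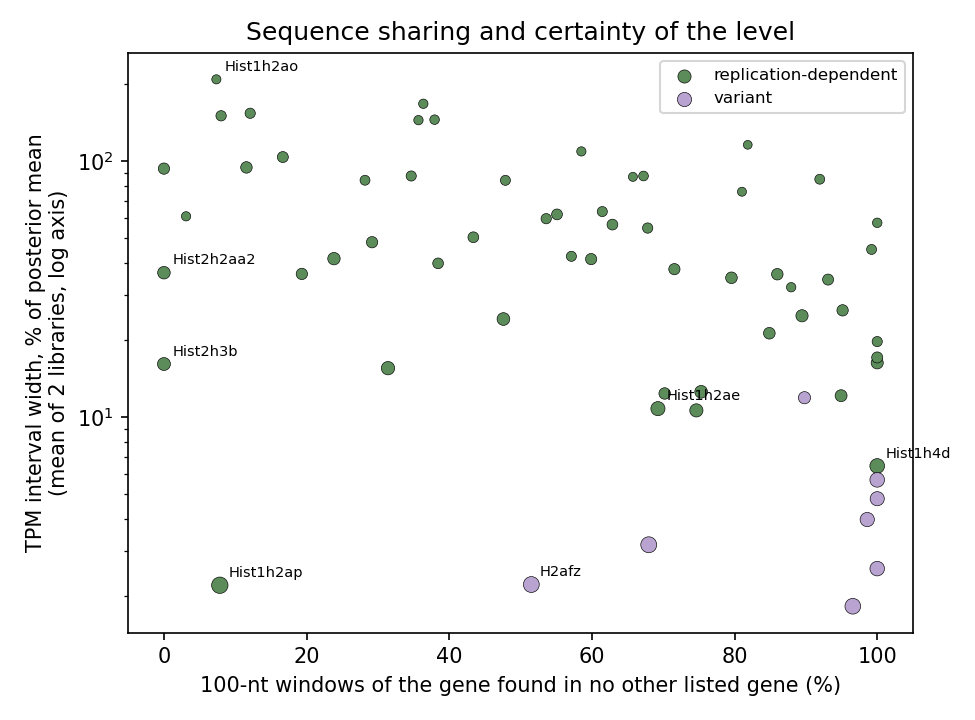
Percent of 100-nt windows of the M21 transcripts found in no other listed gene (linear axis) against interval width as percent of the posterior mean TPM (log axis, mean of 2 libraries), for the 63 detected genes, with larger points for higher TPM. Variant genes sit low and mostly at the right, with H3f3a at 68.0% and H2afz at 51.5% unique windows nearer the middle. Most clustered genes spread above them, and Hist1h2ap combines 7.83% unique windows with a width near 2.2%.

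Between the pools, no histone gene stood apart. Ratios were taken after TMM scaling, over the 49 genes with a mean of at least 5 TPM. The replicate 2 intervals were scaled by the same factor. None of the 49 differed at least 2-fold with intervals apart, beside 43 of 11308 genes (0.38%). An alternative kept the 2-fold limit but used the exact binomial test of the reads, which compares these 2 libraries only, in place of the intervals. It called 1 of 49 members and 66 of 11308 genes (0.584%). Genes with smaller differences in reads are not in these counts. That member was Hist1h2an, at 7.97 and 17.4 TPM with overlapping intervals. A 1.5-fold limit also called 1 member, Hist1h3b at 8.14 and 13.0 TPM, and 85 of 11308 genes (0.752%). Smaller differences leaned one way. The median log2 ratio of replicate 2 over replicate 1 was 0.14 over the members and 0.01 over all genes tested, and 40 of 49 members were higher in replicate 2, beside 55.3% of all genes. The median was 0.19 over the 41 replication-dependent genes and 0.11 over the 8 variant genes. Scaled intervals were apart with replicate 2 higher in 11 members (22.4%), beside 9.2% of all genes. With replicate 1 higher they were apart in 0 members, beside 4.31% of all genes. The 11 were H1f0, Hist1h2ap, Hist1h2ae, H2afz, H2afv, H2afy, Hist1h2bc, Hist1h3i, Hist1h3b, H3f3b and Hist1h4d, most of which have many reads and narrow intervals. As deposited, the intervals of H1f0, H2afy, H2afv, Hist1h2bc and Hist1h3b overlapped between the libraries. Before scaling, H1f0 was at 425 TPM in replicate 1 and 423 TPM in replicate 2. Over the same contrast of scaled ratios, the 9 S phase genes had a median of 0.07. The liver genes had a median of 2.35 and the heart genes 1.49. Of the blood genes, 2 passed the level limit, Hbb-bs and Hba-a1, with a median of 0.15. Of the thymus genes, 2 passed, Cd3e and Lck, with a median of -2.04. Ptprc and Rag1, under the limit, had log2 ratios of -0.91 and -2.23. The 4 RNAs without a poly(A) tail that passed the level limit had a median of 0.20. The part of neighbouring tissue, and of the capture of RNAs without tails, in the histone difference was not tested.

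**Figure D5:**
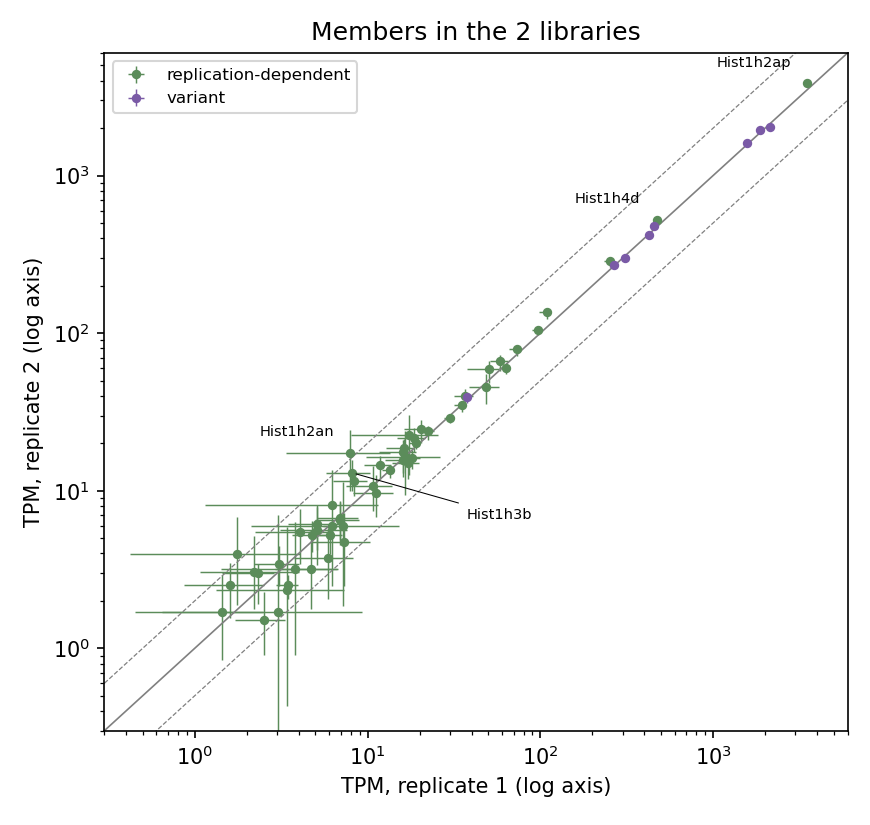
TPM of the 63 genes at 1 TPM or more in both libraries in replicate 1 (x) and replicate 2 (y), both log axes, with bars to the deposited interval bounds, before scaling. The solid line marks equality and the dashed lines 2-fold, and of the points above the upper dashed line Hist1h2an has the highest level.

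The genes that make, process and load histone mRNA and protein were expressed throughout. All 21 genes of histone mRNA 3′ end processing and turnover were detected, with a median of 49.9 and 46.9 TPM. They were led by the Sm protein genes Snrpe (539 and 594 TPM), Snrpb (566 and 564 TPM) and Snrpg (515 and 607 TPM), which also serve the spliceosome. Slbp, whose product binds the hairpins printed above, was at 247 and 236 TPM. Lsm11, a protein of the U7 particle that is specific to histone pre-mRNA, was at 5.70 and 5.18 TPM, and Zfp473 was lowest at 1.86 and 1.74 TPM. All 14 genes of histone gene transcription were detected at a median of 34.3 and 32.2 TPM. Cdk2, whose kinase activates NPAT, was highest at 84.3 and 86.2 TPM, followed by Nfyc, a subunit of the CCAAT-binding factor, at 84.0 and 78.6 TPM and Ccne2 at 66.0 and 68.6 TPM. Npat, the coactivator at the histone clusters, was at 15.4 and 14.2 TPM. Pou2f1, which binds the octamer, was lowest by mean at 11.7 and 12.4 TPM, close to Hinfp at 12.2 and 11.9 TPM.

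Of the histone chaperones and loading factors 15 of 15 listed genes were detected, at a median of 118 and 117 TPM. Rbbp7 (470 and 464 TPM), Rbbp4 (355 and 348 TPM) and Ssrp1, a subunit of FACT (255 and 248 TPM), were highest, and Chaf1a, the large subunit of the replication-coupled H3 chaperone CAF-1, was lowest at 40.3 and 39.2 TPM. All 17 chaperones and remodellers of variant histones were detected, at a median of 72.5 and 58.1 TPM. Anp32e, which removes H2A.Z, was highest at 196 and 185 TPM, followed by Atrx, which places H3.3 in repeats, at 178 and 155 TPM and Hjurp, the loader of the centromeric H3, at 167 and 154 TPM. Hira, which deposits H3.3 at genes, was lowest at 8.36 and 8.74 TPM. The 9 S phase genes had a median of 148 and 147 TPM, led by Pcna (240 and 249 TPM), Tyms (242 and 243 TPM) and Mcm6 (225 and 225 TPM), with Cdc6 lowest at 34.7 and 35.5 TPM. None of these genes was apart between the libraries.

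Of 13 variant genes outside the rule, 4 were detected. H3f3c was at 345 and 355 TPM, and it was the gene that shared most 100-nt windows with the H3f3a transcripts H3f3a-204 and H3f3a-207, of whose windows 58.6% and 47.8% were unique to H3f3a. Cenpa, the centromeric H3, was at 256 and 248 TPM, H2afy2, which encodes macroH2A2, at 116 and 118 TPM and H2afj at 52.9 and 53.2 TPM. Hils1 was at 0.05 and 0 TPM, and H1foo, H1fnt, H2afb1, H2afb2, H2afb3, H2bfm, H2al1a and H2al2a, germ cell or oocyte forms in the main, were listed at 0 in both libraries.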

How the data were processed

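Per the labels, total RNA from 2 embryo pools was sequenced. Per the file headers, reads were quantified on mm10 with GENCODE M4, by a program that the sources used here do not name. The authors deposited estimated counts, TPM, FPKM, posterior mean TPM, percent of a gene's TPM per transcript, and interval bounds on the TPM signal scale. Identifiers were matched to GENCODE M21 without version, 97.96% of 43346. Members and lists were chosen with earlier results of these data known. TMM factors came from edgeR 4.0.16 on rounded counts, and DESeq2 1.42.0 size factors were an alternative. Genes named are all variants, the 3 highest and the lowest detected gene of each type, every gene under 1 TPM or apart, the testis forms, and the highest 3 and lowest gene of each fixed list. Highest and lowest were taken by mean TPM. An order between members was called only with intervals apart in each library. Floors of 3 reads cover counting error only, and intervals cover only counting and the assignment of shared reads. The replicates are pools of different embryos, and no test between conditions was possible.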

Additional observations from a re-analysis of the deposited data

How the results depend on the processing

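Of 64 recomputed values, 43 moved by less than the spread between libraries, or for counts by less than 1.5 times, and no signed value reversed. Part of this count was fixed in advance and says nothing on stability. A share from a single library always lies within the SD of the mean of 2 libraries. The H3.3 share of H3 cannot change without Hist1h2ap, which is an H2A gene. The members called apart went from 0 to 1 with a 1.5-fold limit and to 1 with the exact binomial test in place of the intervals. With counts not divided by length, the replication-dependent share was 20.5%, H1 10.1%, H2A 43.3%, H2B 1.16%, H3 43.6%, H4 1.87%, H3.3 of H3 97.5% and H2A.Z of H2A 46.8%. H3 was then slightly above H2A, the opposite of the main order. Without Hist1h2ap, an alternative chosen after seeing the data, the replication-dependent share was 20.1%, H1 6.72%, H2A 39.7%, H2B 2.20%, H3 44.8%, H4 6.63% and H2A.Z of H2A 67.3%, again with H3 above H2A. Without the highest gene of each type, H1 was 2.997%, H2A 61.0%, H2B 1.64% and H4 1.60%. Detected members numbered 47 to 65 over all limits tried. No paired analysis was possible because there is a single group. With 2 pools the SD is itself poorly known.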
